A study of Homo sapiens with 6 samples.

Results

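Genes for the synthesis of cholesterol and fatty acids, and for their control by the SREBP transcription factors, were followed in SKOV3ip1 cells after silencing of BARD1. The 31 genes were taken by name from the 58735 genes of the count table. They are 7 genes of the mevalonate and isoprenoid steps, 11 of the squalene and sterol steps, 5 SREBP factors and their controllers, 1 sterol transport gene and 7 genes of fatty acid synthesis. All 31 were protein-coding, each name stood on 1 row, and all 31 passed the filter on low counts. SKOV3ip1 is an established human ovarian adenocarcinoma line, cultured here in serum-containing medium. In the BARD1 siRNA group, 3 cultures were given 2 µg of siRNA against BARD1, a partner of BRCA1 in a ubiquitin ligase. In the control siRNA group, 3 cultures were given control siRNA with the same lipid reagent, and all 6 were collected at 48 h. The genotype of both groups is labelled as wild type (WT), and 1 line at 1 time limits the comparison. The labels name the material both cells and tumors, and the protocols describe cultured cells. The sources used here do not give the siRNA sequences. They call the 3 libraries of a group biological replicates but do not say whether transfections or days were separate, so p-values measure the spread between these libraries.

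Cells make cholesterol from acetyl-CoA by way of mevalonate, farnesyl diphosphate and squalene. SREBF2 encodes the factor that mainly drives these genes and SREBF1 the factor that mainly drives fatty acid synthesis. Both proteins are held in the endoplasmic reticulum with SCAP while INSIG proteins bind SCAP in the presence of sterols, and are released in the Golgi when sterols run low. Many tumour lines synthesise both lipids actively.

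BARD1 siRNA libraries held 16661374 to 17743404 gene counts and control siRNA libraries 16621108 to 17704645, so that 1 CPM stood for about 17.2 reads. CPM is the count scaled to library size, here after TMM factors, and values below are CPM unless named otherwise. BARD1 averaged 7.38 ± 2.04 CPM with BARD1 siRNA and 44.3 ± 5.85 CPM with control siRNA (SD, n = 3 each; edgeR adjusted p = 1.21e-15). Of the 12 carcinoma markers 10 were tested. At an edgeR adjusted p under 0.05, 2 were higher and 4 lower (20% and 40%), beside 22.0% and 20.3% of all tested genes. The median log2 fold change of the 10 was −0.18. PAX8 stood at 589 CPM with BARD1 siRNA and 349.8 CPM with control siRNA, and KRT18 at 340.4 and 258 CPM in the same order, and both rose. KRT7 fell to 134 CPM with BARD1 siRNA against 264 CPM with control siRNA, KRT19 to 173 against 263 CPM, EPCAM to 42.5 against 50.2 CPM and ERBB2 to 1911 against 2100.3 CPM. KRT8, at 1276 CPM with BARD1 siRNA and 1232 CPM with control siRNA, did not pass. The 12 markers summed to 4411 to 4525 CPM with BARD1 siRNA and 4313 to 4708 CPM with control siRNA, and their part in the results below was not tested. CDH1 stayed under 1 CPM in both groups, and MUC16 had 13 counts over the BARD1 siRNA and 12 over the control siRNA libraries. The 5 endothelial markers summed to 0.118 to 0.308 CPM with BARD1 siRNA and 0.117 to 0.285 CPM with control siRNA. The 6 leukocyte markers summed to 0.23 to 0.308 CPM with BARD1 siRNA and 0.61 to 1.25 CPM with control siRNA, with PTPRC, CD3E, CD68 and LYZ at 0 counts. The 6 fibroblast markers summed to 8.41 to 10.2 CPM and 6.49 to 8.94 CPM in the same order.

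The 31 genes did not move as 1 block. With BARD1 siRNA 9 rose and 14 fell, and 8 did not pass the threshold, an adjusted p of 0.05 over the 15271 tested genes in edgeR's quasi-likelihood test. The genes that rose were INSIG1, INSIG2, SREBF1, SREBF2, STARD4, CYP51A1, MVD, MSMO1 and HMGCS1, and their log2 fold changes ran from 0.29 to 1.21. The genes that fell ran from −0.69 to −0.18 and held 5 of the 7 fatty acid genes. The share called was 74.2% of the 31 genes, beside 42.3% of all tested genes (22.0% higher and 20.3% lower). The 31 genes are well expressed, 23 of them above the median level of all tested genes. Among the 11027 tested genes at or above the level of the lowest of the 31, 52.0% were called. The median log2 fold change was −0.05 for the 31 genes and −0.01 for all tested genes. It was −0.11 without control siRNA replicate 3 and −0.02 without control siRNA replicate 1. Over all genes 3355 were higher and 3107 lower, and with upper-quartile scaling 2815 and 3975, while 9 of the 31 genes were higher and 14 lower under both scalings. In bulk RNA a change in the cells' make-up and a change in RNA per cell cannot be told apart.

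**Figure D1:**
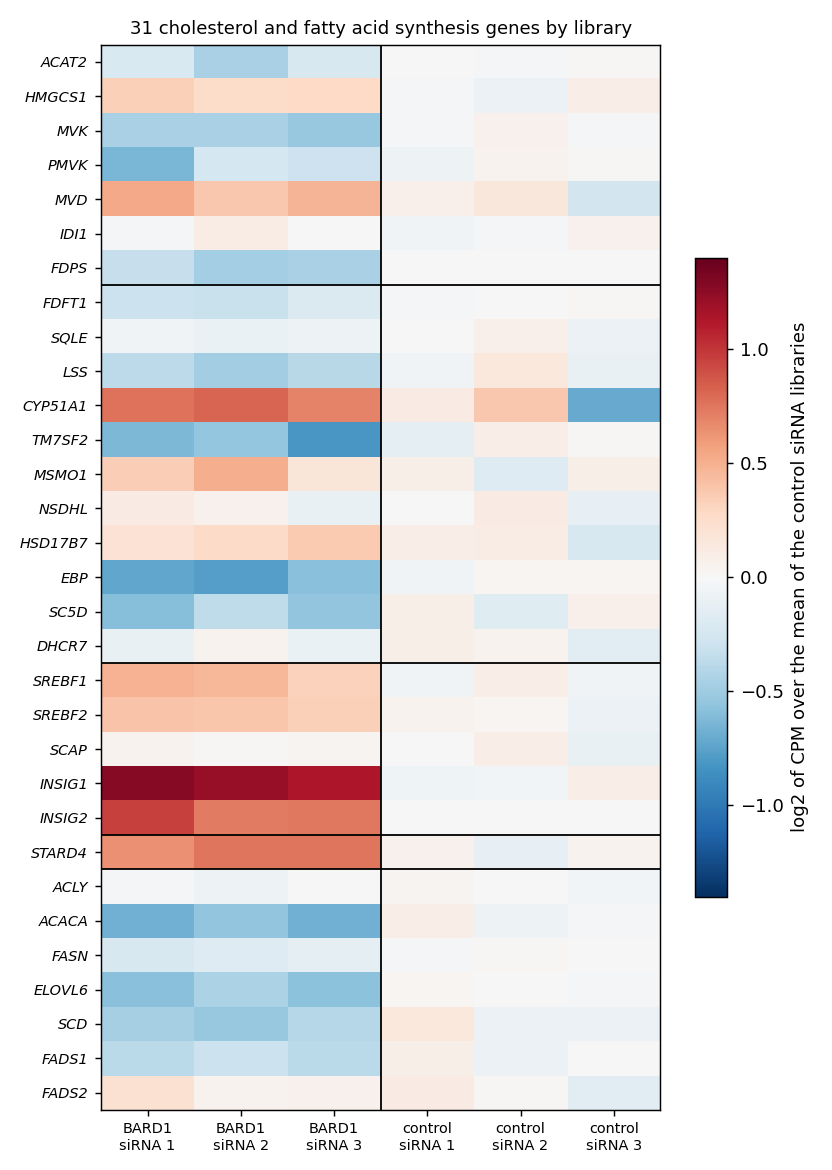
Each cell gives log2 of a library's CPM over the mean of the 3 control siRNA libraries, with BARD1 siRNA libraries at the left and black lines between role groups. INSIG1 is the deepest red in all 3 BARD1 siRNA libraries, and ACACA, SCD and ELOVL6 are blue in all 3.

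All 3 BARD1 siRNA libraries lay above all 3 control siRNA libraries for 10 of the 31 genes and below them for 14, beside 25.8% and 24.7% of all tested genes (50.4% in either direction). The 10 were the 9 that rose and HSD17B7, which did not pass. A called change of at least 0.5 on the log2 scale was met by 8 of the 31 genes, beside 19.0% of all tested genes. INSIG1 was the 1 gene of the 31 with more than a 2-fold change. The median absolute log2 fold change was 0.38 for the 31 genes and 0.28 for all tested genes.

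The SREBP factors and their controllers had 4 genes higher and 0 lower of 5 in edgeR, and 0 were lower at an unadjusted p under 0.05, in DESeq2 or in limma-voom. Of all tested genes 22.0% were higher and 20.3% lower in edgeR. INSIG1 (ENSG00000186480), on chromosome 7 (155297776 to 155310235, GRCh38, plus strand), encodes an endoplasmic reticulum protein that retains SCAP. It stood at 184, 177 and 167 CPM with BARD1 siRNA, against 73.1, 73.9 and 81.2 CPM with control siRNA. The groups were far apart, with a 2.31-fold increase (log2 fold change 1.21, SE 0.06, edgeR adjusted p = 1.44e-23). This change was larger than 95% of all tested genes' changes in absolute size. INSIG2, its paralog on chromosome 2 (118088452 to 118110997, plus strand), has the same retention role. It stood at 26.2, 22.3 and 22.6 CPM with BARD1 siRNA, against 13.6, 13.5 and 13.5 CPM with control siRNA. It rose 1.75-fold with no overlap (log2 fold change 0.81, SE 0.12, edgeR adjusted p = 6.37e-08).

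Counts of INSIG1 were 7.04, 7.91 and 7.38 times those of INSIG2 in the BARD1 siRNA libraries, against 5.40, 5.47 and 6.03 times (5.395 and 6.025 before rounding) in the control siRNA libraries. This ratio within a library does not depend on scaling. Its log2 differed by 0.40 between the groups with no overlap, at p = 0.1 in a two-sided exact permutation test, the smallest p that 3 against 3 can give. The counts compare the paralogs within each library only; per kilobase of gene length INSIG1 stood at 48.2 ± 2.42 and INSIG2 at 6.00 ± 0.542 CPM with BARD1 siRNA, against 20.8 ± 1.23 and 3.42 ± 0.009 CPM with control siRNA (SD, n = 3).

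SREBF2, on chromosome 22 (41833079 to 41907308, plus strand), was the more abundant SREBP gene. It stood at 249, 248 and 239 CPM with BARD1 siRNA, against 197, 193 and 179 CPM with control siRNA. It rose 1.29-fold (log2 fold change 0.37, SE 0.05, edgeR adjusted p = 3.85e-08). SREBF1, on chromosome 17 (17810399 to 17837002, minus strand), stood at 59.1, 58.1 and 52.8 CPM with BARD1 siRNA, against 40.9, 44.9 and 40.9 CPM with control siRNA. It rose 1.34-fold (log2 fold change 0.43, SE 0.08, edgeR adjusted p = 1.44e-05; 0.425 before rounding). Neither gene's groups overlapped. The ratio of SREBF1 to SREBF2 counts overlapped between the groups, at 0.237, 0.235 and 0.221 with BARD1 siRNA and 0.208, 0.233 and 0.228 with control siRNA (two-sided exact permutation p = 0.5). SCAP, the sterol-sensing escort of both factors, averaged 104 ± 1.37 CPM with BARD1 siRNA and 101 ± 6.58 CPM with control siRNA and did not pass (log2 fold change 0.04, SE 0.06, edgeR adjusted p = 0.664). STARD4, which encodes a cytosolic carrier of cholesterol between membranes, rose 1.64-fold. It stood at 43.0, 46.4 and 46.7 CPM with BARD1 siRNA, against 28.8, 25.5 and 28.7 CPM with control siRNA (log2 fold change 0.71, SE 0.09, edgeR adjusted p = 2.10e-09).

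Together the 5 SREBP factors and controllers summed to 605 ± 19.1 CPM with BARD1 siRNA and 422 ± 12.1 CPM with control siRNA (SD, n = 3), a difference far above the replicate spread. INSIG1, at 176 CPM with BARD1 siRNA and 76.1 CPM with control siRNA, was the largest part of that difference. SREBF2, at 245 and 190 CPM in the same order, was the next. All 31 genes summed to 2880 to 2887 CPM with BARD1 siRNA and 2903 to 3000 CPM with control siRNA.

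Antisense genes with enough counts to test lay at 4 of the 31 genes, and they had no common direction. SREBF2-AS1, which shares 280 exon bases with SREBF2 on the opposite strand, had 139, 154 and 189 counts with BARD1 siRNA and 246, 242 and 243 counts with control siRNA (log2 fold change −0.55, edgeR adjusted p = 0.00144). STARD4-AS1 had 56, 74 and 71 counts with BARD1 siRNA and 111, 97 and 102 counts with control siRNA (log2 fold change −0.57, edgeR adjusted p = 0.0288). At DHCR7, AP002387.1, which shares 0 exon bases with it, rose, with 49, 64 and 35 counts with BARD1 siRNA and 25, 22 and 15 counts with control siRNA (log2 fold change 1.31, edgeR adjusted p = 0.00203; 0.002035 before rounding). At FDPS, RUSC1-AS1 shares 18.6% of the exon bases and did not pass, with 30, 40 and 26 counts with BARD1 siRNA and 28, 30 and 27 counts with control siRNA (log2 fold change 0.23, edgeR adjusted p = 0.648). The sources used here do not give the strand setting of the counting, so reads in the shared bases cannot be assigned with certainty. SREBF1 shares 556 exon bases, 6.92% of its exons, with RAI1 on the opposite strand. RAI1 had the higher mean count and a log2 fold change of 0.21 (edgeR adjusted p = 0.00478).

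Promoter windows of RefSeq (GRCh38.p14) were matched for 27 of the 31 genes by symbol; ACAT2, FASN, FDFT1 and SQLE had no entry. The 250 bases before each annotated start were searched on both strands for TCACNCCAC, a form of the sterol regulatory element that SREBPs bind, and for CCAAT, the core of the site of NF-Y, which acts with SREBPs at many of their promoters. TCACNCCAC was found at 1 of the 27 genes, SREBF2, and at 1.09% of all 27305 genes of the table. CCAAT was found at 19 of the 27 genes, or 70.4%, beside 37% of all genes, counting a gene when any of its windows held it. It stood at 6 of 9 genes that rose, 8 of 11 that fell and 5 of 7 that did not pass, so that its presence did not divide the genes by direction. At least 3 matches were found at 7 of the 27 genes and at 3.55% of all genes. The shares of all genes were not limited to genes that passed the filter on low counts, so they are not matched to the 27 for level. A match of letters is not a measured binding site.

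The stretches below show 4 genes that rose and 2 that fell. Each is printed in the direction of its gene and starts 250 bases before the RefSeq start. It ends before the first base of the gene in the count table. Capitals mark matches to both motifs, with CCAAT written as ATTGG where it lies on the other strand. The first has the sterol regulatory match TCACCCCAC, 133 bases before the start.
SREBF2 (chr22:41832855-41833078, plus strand): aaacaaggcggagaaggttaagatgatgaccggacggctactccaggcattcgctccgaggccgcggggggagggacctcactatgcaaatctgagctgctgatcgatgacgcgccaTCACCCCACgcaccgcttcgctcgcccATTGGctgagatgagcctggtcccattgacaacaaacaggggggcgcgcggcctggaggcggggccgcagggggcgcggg
INSIG1 (chr7:155297628-155297775, plus strand): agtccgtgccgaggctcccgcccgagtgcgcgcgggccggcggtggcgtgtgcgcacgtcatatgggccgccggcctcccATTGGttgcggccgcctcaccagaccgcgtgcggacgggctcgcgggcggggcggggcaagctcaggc
STARD4 (chr5:111512591-111512785, minus strand): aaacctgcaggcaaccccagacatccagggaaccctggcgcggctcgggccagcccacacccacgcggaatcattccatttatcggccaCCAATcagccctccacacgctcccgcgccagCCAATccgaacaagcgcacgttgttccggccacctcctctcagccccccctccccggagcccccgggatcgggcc
MSMO1 (chr4:165327419-165327622, plus strand): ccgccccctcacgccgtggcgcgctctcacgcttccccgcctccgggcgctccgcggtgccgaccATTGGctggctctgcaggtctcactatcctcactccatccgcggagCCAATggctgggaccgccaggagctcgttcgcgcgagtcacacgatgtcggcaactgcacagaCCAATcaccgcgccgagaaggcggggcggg
SCD (chr10:100346983-100347123, plus strand): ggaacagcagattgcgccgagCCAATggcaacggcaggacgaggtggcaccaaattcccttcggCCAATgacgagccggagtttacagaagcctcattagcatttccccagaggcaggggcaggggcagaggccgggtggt
LSS (chr21:46228825-46229024, minus strand): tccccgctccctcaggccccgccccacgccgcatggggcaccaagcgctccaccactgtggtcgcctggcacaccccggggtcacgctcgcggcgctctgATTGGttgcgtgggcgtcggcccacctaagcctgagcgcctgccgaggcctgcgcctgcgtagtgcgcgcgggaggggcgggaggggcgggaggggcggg
SCD and STARD4, which changed in opposite directions, each show 2 CCAAT matches in the printed bases. INSIG1 and LSS, likewise opposite, each show 1. MSMO1 shows 3 in the printed bases and 1 more in the rest of its window.

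**Figure D2:**
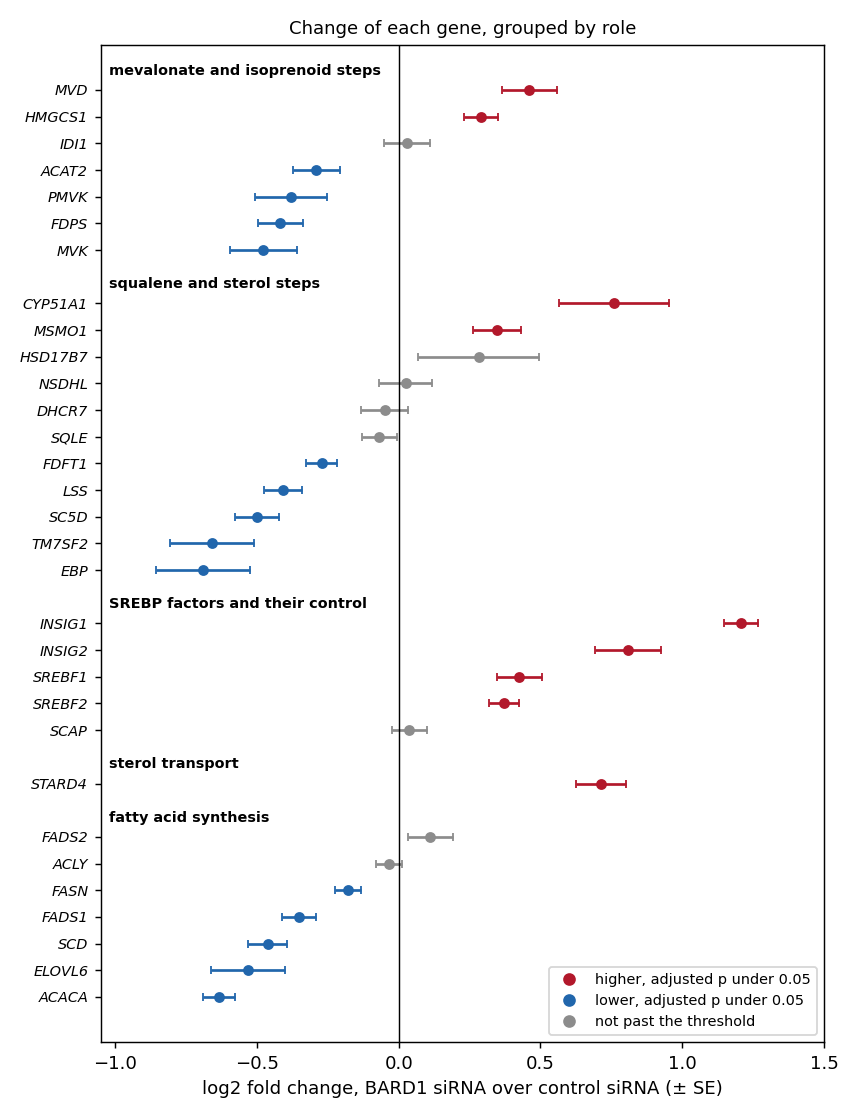
Points give the log2 fold change of BARD1 siRNA over control siRNA for each gene with its SE, from edgeR, in red where higher, blue where lower and grey where the adjusted p was not under 0.05. The SREBP group and STARD4 hold no blue point and the fatty acid group holds no red point.

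The mevalonate and isoprenoid genes had 2 higher and 4 lower of 7 (28.6% and 57.1%), beside 22.0% and 20.3% of all tested genes. HMGCS1, which makes HMG-CoA from acetoacetyl-CoA, stood at 127, 119.6 and 122 CPM with BARD1 siRNA, against 98.5, 94.9 and 107 CPM with control siRNA. It rose 1.22-fold without overlap (log2 fold change 0.29, SE 0.06, edgeR adjusted p = 7.17e-05). MVD, which decarboxylates mevalonate diphosphate, stood at 43.1, 38.6 and 41.3 CPM with BARD1 siRNA, against 31.4, 33.2 and 24.9 CPM with control siRNA. It rose 1.38-fold (log2 fold change 0.46, SE 0.10, edgeR adjusted p = 7.30e-05; SE 0.0954 before rounding). Control siRNA replicate 3 was the lowest library for MVD, and the log2 fold change was 0.34 without it.

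The kinases that act between these enzymes fell. MVK, mevalonate kinase, stood at 14.6, 14.6 and 13.8 CPM with BARD1 siRNA, against 19.5, 20.7 and 19.5 CPM with control siRNA (log2 fold change −0.48, SE 0.12, edgeR adjusted p = 0.000736). MMAB, a vitamin B12 pathway gene on the opposite strand, shares 306 of MVK's exon bases (4.72%), has the higher mean count, and fell by 0.64 on the log2 scale (edgeR adjusted p = 9.21e-07). PMVK, phosphomevalonate kinase, fell by 0.38 on the log2 scale (edgeR adjusted p = 0.013) at 11.3, 14.8 and 14.3 CPM with BARD1 siRNA, against 16.7, 18.2 and 17.7 CPM with control siRNA. BARD1 siRNA replicate 1 was its lowest library. Without that library the log2 fold change was −0.27 and no longer passed (edgeR adjusted p = 0.122; 0.1215 before rounding).

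FDPS, farnesyl diphosphate synthase, makes the branch point of sterols and prenyl groups. It stood at 42.7, 38.5 and 39.0 CPM with BARD1 siRNA, against 53.6, 53.7 and 53.3 CPM with control siRNA, and fell 1.34-fold (log2 fold change −0.42, SE 0.08, edgeR adjusted p = 2.12e-05). Its 8 annotated pseudogenes had 17 counts in all libraries together. ACAT2, the cytosolic thiolase that forms acetoacetyl-CoA, stood at 43.0, 36.4 and 42.6 CPM with BARD1 siRNA, against 49.9, 48.9 and 50.3 CPM with control siRNA. It fell by 0.29 on the log2 scale (edgeR adjusted p = 0.00337), but not past the threshold without BARD1 siRNA replicate 2, its lowest library (−0.22, edgeR adjusted p = 0.0628; 0.06275 before rounding). It shares exon bases with SOD2, SOD2-OT1 and TCP1 on the opposite strand, 26.5%, 33.9% and 9.23% of its exons. SOD2 had a mean of 0.667 counts and SOD2-OT1 had 0. TCP1 had a mean of 7115 counts, beside 778 for ACAT2, and did not pass (log2 fold change 0.0007, edgeR adjusted p = 0.992). The level of ACAT2 is uncertain because of these shared bases. IDI1, isopentenyl diphosphate isomerase, averaged 47.2 ± 2.04 CPM with BARD1 siRNA and 46.3 ± 1.84 CPM with control siRNA and did not pass (log2 fold change 0.03, SE 0.08, edgeR adjusted p = 0.808; 0.8075 before rounding).

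Summed over the 7 mevalonate and isoprenoid genes, expression was 319 ± 7.48 CPM with BARD1 siRNA and 317 ± 3.83 CPM with control siRNA (SD, n = 3), with HMGCS1 the largest part. The genes that fell and those that rose thus left the sum within the replicate spread.

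The squalene and sterol genes had 2 higher and 5 lower of 11 (18.2% and 45.5%), beside 22.0% and 20.3% of all tested genes. The largest decreases of this group were in EBP and TM7SF2, whose enzymes act on the sterol rings. EBP, the sterol isomerase, stood at 6.16, 5.98 and 6.84 CPM with BARD1 siRNA, against 9.85, 10.4 and 10.4 CPM with control siRNA. It fell 1.61-fold (log2 fold change −0.69, SE 0.17, edgeR adjusted p = 0.000529). TM7SF2, a sterol reductase, stood at 8.62, 9.12 and 7.53 CPM with BARD1 siRNA, against 12.2, 14.2 and 13.5 CPM with control siRNA. It fell 1.58-fold (log2 fold change −0.66, SE 0.15, edgeR adjusted p = 0.000236). For both genes every BARD1 siRNA library lay under every control siRNA library.

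SC5D, a sterol desaturase, had a change with a smaller error because of its higher counts. It stood at 47.1, 55.6 and 48.8 CPM with BARD1 siRNA, against 75.4, 63.4 and 75.2 CPM with control siRNA (log2 fold change −0.50, SE 0.08, edgeR adjusted p = 4.54e-07). LSS, lanosterol synthase, which closes the sterol rings, stood at 73.4, 67.6 and 72.3 CPM with BARD1 siRNA, against 91.0, 104 and 87.8 CPM with control siRNA, and fell 1.33-fold (edgeR adjusted p = 1.49e-06). FDFT1, squalene synthase, the first enzyme committed to sterols, fell 1.21-fold, to 125 ± 5.46 CPM with BARD1 siRNA against 151 ± 2.78 CPM with control siRNA (edgeR adjusted p = 6.56e-05; 6.555e-05 before rounding).

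CYP51A1 and MSMO1, which act in the removal of methyl groups on the way from lanosterol to cholesterol, were the genes of this group that rose. CYP51A1 stood at 9.29, 9.71 and 8.91 CPM with BARD1 siRNA, against 5.98, 7.16 and 3.38 CPM with control siRNA (log2 fold change 0.76, SE 0.20, edgeR adjusted p = 0.0013; SE 0.1955 before rounding). Control siRNA replicate 3 was far under the other controls, and without it the log2 fold change was 0.50 (0.4985 before rounding; edgeR adjusted p = 0.0281, or 0.02805). An annotation on the same strand with 0 counts in all 6 libraries, AC000120.2, covers 79.4% of CYP51A1's exon bases. The sources used here do not say how reads on both were counted, so the level of CYP51A1 is uncertain. MSMO1 stood at 58.8, 66.0 and 52.2 CPM with BARD1 siRNA, against 48.96, 40.9 and 49.2 CPM with control siRNA, and rose 1.27-fold (log2 fold change 0.35, SE 0.08, edgeR adjusted p = 0.000701).

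In this group the other four genes did not pass. SQLE, squalene epoxidase, a rate-controlling step, averaged 90.8 ± 1.41 CPM with BARD1 siRNA and 95.2 ± 5.24 CPM with control siRNA (log2 fold change −0.07, SE 0.06, edgeR adjusted p = 0.406; 0.4055 before rounding). DHCR7, which makes cholesterol in the last step of one branch, averaged 45.6 ± 2.69 and 47.2 ± 3.92 CPM in the same order (log2 fold change −0.05, SE 0.08). NSDHL, which acts with MSMO1 in demethylation, averaged 33.0 ± 2.61 CPM with BARD1 siRNA and 32.4 ± 2.56 CPM with control siRNA (log2 fold change 0.03, SE 0.09). HSD17B7, the reductase of the same reaction set, had 86, 93 and 103 counts with BARD1 siRNA and 86, 84 and 71 counts with control siRNA, too few for a small change to pass (log2 fold change 0.28, SE 0.21). A near copy, HSD17B7P2, held a mean of 32.5 counts beside 87.2 for HSD17B7, so reads may be divided between them. The sum over the 11 genes was 505 ± 7.52 CPM with BARD1 siRNA and 571 ± 11.5 CPM with control siRNA (SD, n = 3).

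The fatty acid genes had 0 higher and 5 lower of 7 in edgeR, and 0 were higher at an unadjusted p under 0.05, in DESeq2 or in limma-voom. Of all tested genes 22.0% were higher and 20.3% lower in edgeR. ACACA, on chromosome 17 (37084988 to 37406818, minus strand), encodes acetyl-CoA carboxylase, which makes malonyl-CoA in the rate-limiting step of fatty acid synthesis. It stood at 120.1, 131 and 121 CPM with BARD1 siRNA, against 206, 182 and 189 CPM with control siRNA. It fell 1.55-fold with a wide gap between the groups (log2 fold change −0.63, SE 0.06, edgeR adjusted p = 9.90e-14). FASN, fatty acid synthase, was among the most abundant of the 31 genes and changed least of those called. It stood at 537, 553 and 570.2 CPM with BARD1 siRNA, against 619, 635 and 624 CPM with control siRNA (log2 fold change −0.18, SE 0.05, edgeR adjusted p = 0.00119). ACLY, which makes cytosolic acetyl-CoA from citrate, averaged 498 ± 10.8 CPM with BARD1 siRNA and 510.3 ± 14.5 CPM with control siRNA. It did not pass (log2 fold change −0.03, SE 0.05, edgeR adjusted p = 0.59).

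Among enzymes that modify the product, SCD, ELOVL6 and FADS1 also fell. SCD, the desaturase that makes oleate, stood at 64.1, 61.2 and 66.9 CPM with BARD1 siRNA (61.25 for replicate 2), against 97.8, 83.4 and 83.5 CPM with control siRNA. It fell 1.38-fold (log2 fold change −0.46, SE 0.07, edgeR adjusted p = 1.91e-07). ELOVL6, which elongates palmitate, stood at 10.9, 11.97 and 11.0 CPM with BARD1 siRNA, against 16.6, 16.3 and 16.1 CPM with control siRNA (log2 fold change −0.53, SE 0.13, edgeR adjusted p = 0.000666). All 3 controls of ELOVL6 lay close together and above every BARD1 siRNA library.

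FADS1 and FADS2 encode desaturases of polyunsaturated fatty acids and overlap on chromosome 11, FADS1 at 61799625 to 61829318 on the minus strand and FADS2 at 61792980 to 61867354 on the plus strand. FADS1 stood at 101, 106 and 100.3 CPM with BARD1 siRNA, against 138, 123 and 131 CPM with control siRNA, and fell 1.28-fold (log2 fold change −0.35, SE 0.06, edgeR adjusted p = 2.18e-06). FADS2 stood at 59.1, 52.7 and 53.1 CPM with BARD1 siRNA, against 55.3, 51.6 and 45.7 CPM with control siRNA, overlapped and did not pass (log2 fold change 0.11, SE 0.08, edgeR adjusted p = 0.275). They share 490 exon bases on opposite strands, under 5% of either gene's exons (4.79% of FADS1 and 4.44% of FADS2). FEN1 shares 49 exon bases, 0.444% of FADS2's exons, with FADS2 on the same strand. FEN1 had the higher mean count, 2276 beside 908 for FADS2, and a log2 fold change of −0.53 (edgeR adjusted p = 5.63e-11). FADS3, the next gene on the chromosome (61873519 to 61892051) and no member of the 31, rose, at 225 ± 5.10 CPM with BARD1 siRNA and 141 ± 7.73 CPM with control siRNA (log2 fold change 0.67, SE 0.05, edgeR adjusted p = 2.06e-15). Across the 3 FADS genes the log2 fold changes were −0.35, 0.11 and 0.67. The 7 fatty acid genes summed to 1408 ± 20.2 CPM with BARD1 siRNA and 1615 ± 37.8 CPM with control siRNA (SD, n = 3).

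Levels were set between genes per kilobase of the gene length in the count table. ACLY led at 95.5 ± 2.07 CPM per kilobase with BARD1 siRNA and 97.8 ± 2.78 with control siRNA (SD, n = 3), followed by FASN at 59.1 ± 1.77 and 66.9 ± 0.852 in the same order. The third place was held by INSIG1 with BARD1 siRNA, at 48.2 CPM per kilobase, and by FDFT1 with control siRNA, at 29.0. INSIG1 held place 7 with control siRNA. In the lowest place, HSD17B7 stood at 1.17 ± 0.0664 with BARD1 siRNA and 0.96 ± 0.118 with control siRNA. Between the neighbours CYP51A1, ELOVL6 and MVK, control levels were 1.54 ± 0.539, 2.23 ± 0.0333 and 3.08 ± 0.107 CPM per kilobase, and the error of CYP51A1 was the widest of the 3.

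**Figure D3:**
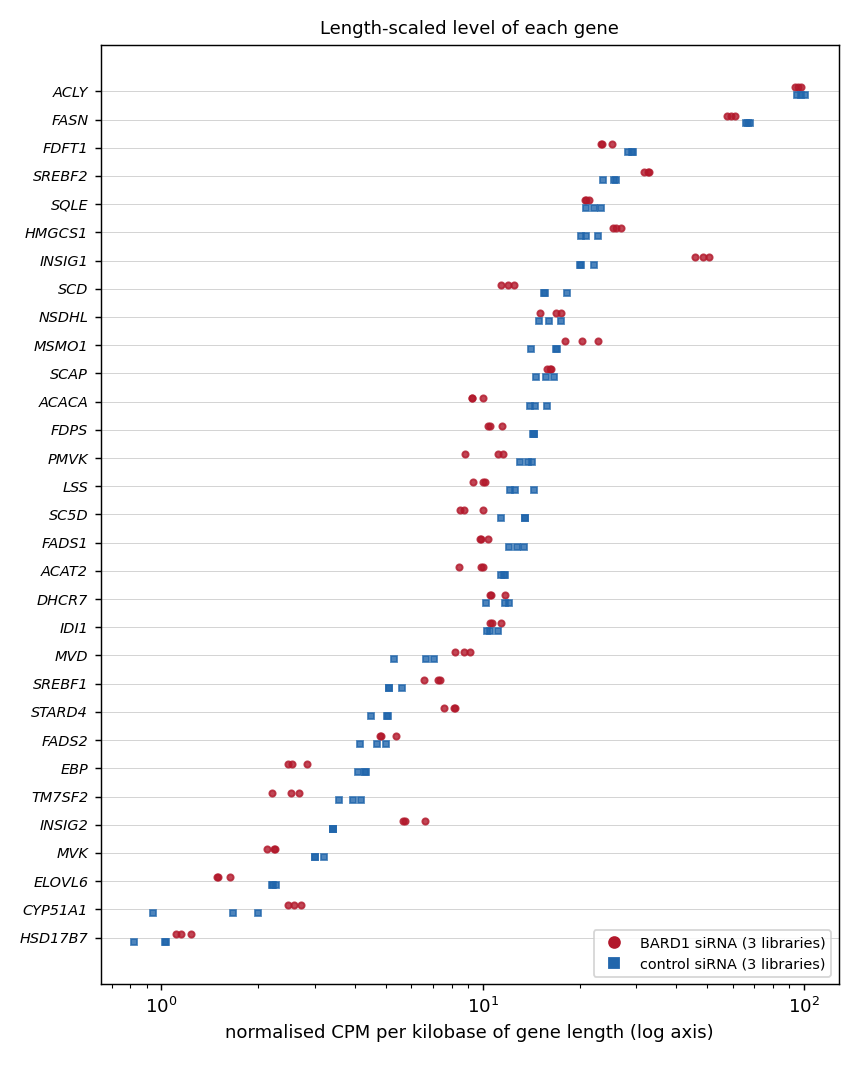
Points give each library's normalised CPM per kilobase of gene length on a log axis, with BARD1 siRNA (circles) drawn above control siRNA (squares), genes ordered by their control siRNA level. ACLY and FASN stand highest, and INSIG1 shows the widest separation, near 48.2 with BARD1 siRNA and 20.8 with control siRNA.

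Neighbouring lipid pathways were counted from lists written from textbook knowledge, with earlier results of these data known. Their shares are therefore given as description alone. Beside the share of 42.3% called among all tested genes, 71.4% of 14 other sterol and isoprenoid genes were called, 2 higher and 8 lower. FNTB, a farnesyltransferase subunit, fell by 0.63, ICMT, which methylates prenylated proteins, by 0.51 and ERG28, a scaffold of sterol demethylation, by 0.49 on the log2 scale.

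Genes of sterol uptake, transport, storage and efflux had 11 higher and 3 lower of 20 tested, with a median log2 fold change of 0.31. These were 55% and 15%, beside 22.0% and 20.3% of all tested genes. ABCA1, which exports cholesterol to apolipoproteins, stood at 44.6, 51.3 and 48.4 CPM with BARD1 siRNA, against 14.9, 13.2 and 15.8 CPM with control siRNA (log2 fold change 1.72, SE 0.10, edgeR adjusted p = 7.84e-21). NPC1, which moves cholesterol out of lysosomes, averaged 147 ± 2.27 CPM with BARD1 siRNA and 73.3 ± 2.83 CPM with control siRNA (log2 fold change 1.01, edgeR adjusted p = 1.83e-20). MYLIP, a ubiquitin ligase for lipoprotein receptors, rose by 1.29. GRAMD1B, a carrier of plasma membrane cholesterol, rose by 1.91 but stayed low, at 3.11 ± 1.74 CPM with BARD1 siRNA and 0.824 ± 0.553 CPM with control siRNA.

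Genes of SREBP processing and degradation had 5 higher and 5 lower of 14, or 35.7% each way. Over all tested genes 22.0% were higher and 20.3% lower. SYVN1 and FBXW7, ubiquitin ligase genes, rose by 0.88 and 0.74, and ERLIN1, which joins INSIG-dependent degradation, fell by 0.54 on the log2 scale. MBTPS1, the Golgi protease that makes the first cut in SREBPs, averaged 97.8 ± 8.87 CPM with BARD1 siRNA and 135 ± 3.14 CPM with control siRNA (log2 fold change −0.46, edgeR adjusted p = 9.06e-09).

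Other genes of fatty acid synthesis and elongation had 5 higher and 7 lower of 21. ACACB, the mitochondrial paralog of ACACA, fell by 0.85 on the log2 scale, to 7.64 ± 0.722 CPM with BARD1 siRNA against 13.8 ± 2.05 CPM with control siRNA, and SCD5 fell by 0.40. MID1IP1, which promotes carboxylase polymerisation, rose by 0.53. Genes of fatty acid activation and triglyceride synthesis, a list that also holds lipases, had 4 higher and 6 lower of 17. Without BARD1 siRNA replicate 2, 2 were lower. Among the 17, the acyl-CoA synthetase ACSL5 rose by 1.93 on the log2 scale. It averaged 9.65 ± 1.51 CPM with BARD1 siRNA and 2.52 ± 0.539 CPM with control siRNA. The lipases MGLL and PNPLA2 rose by 0.88 and 0.41, and AGPAT1 fell by 0.32 on the log2 scale. Fatty acid oxidation genes had 2 higher and 9 lower of 21. ECI1, HADH and CPT1A fell by 0.67, 0.62 and 0.40, and the nuclear receptor gene PPARA rose by 0.51 on the log2 scale. The share called in these 3 lists was 57.1%, 58.8% and 52.4%, beside 42.3% of all tested genes. Among tested genes at or above the level of HSD17B7, 52.0% were called, close to the share for fatty acid oxidation. The differences from these base shares were not tested.

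**Figure D4:**
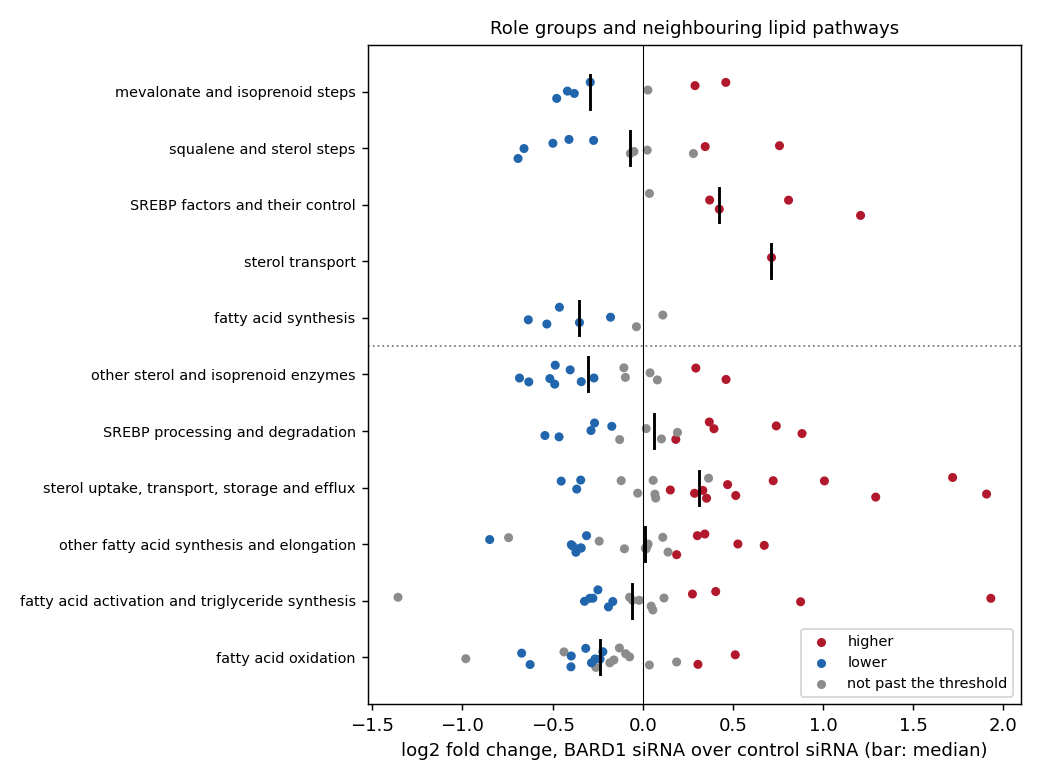
Each point is a tested gene, placed by its log2 fold change of BARD1 siRNA over control siRNA, with a black bar at the median of its list; the dotted line parts the 31 genes above from the neighbouring lists below. The medians run from −0.35 for fatty acid synthesis to 0.71 for the 1 sterol transport gene, and sterol uptake, transport, storage and efflux stands at 0.31.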

How the data were processed

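The authors deposited 1 table of raw read counts per gene for 6 libraries made after poly(A) capture, with gene lengths. HISAT2 and CASAVA on GRCh38 (hg38) are named in the submitters' processing notes; the sources used here give no version, counting program, annotation release or strand setting. All 58735 identifiers are in GENCODE release 29, and all 31 genes have the same start and end there.

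Counts were tested in R 4.3.3 with edgeR 4.0.16 (robust quasi-likelihood test, TMM factors, group alone), on the 15271 genes that passed filterByExpr (min.count 10, min.total.count 15). Benjamini-Hochberg adjustment ran over all of them, with a threshold of 0.05. A fold change is the BARD1 siRNA level over the control siRNA level, and the SE is the absolute log2 fold change over the square root of F. The fit was tested on simulated data. Libraries of the same replicate number showed no closer match than others, and the sources used here do not say whether they were paired.

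The 31 genes and the neighbouring lists were chosen with earlier results of these data known. All 31 are named, and from each neighbouring list the 4 called genes with the largest change, except 1 that is not reported here. The fit was repeated with RLE factors, upper-quartile factors, library size alone, DESeq2 1.42.0, limma-voom (limma 3.58.1), other filters, protein-coding genes only, a replicate block, no robust estimation, and each library left out.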

Additional observations from a re-analysis of the deposited data

How the results depend on the processing

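Of the 31 genes, 26 kept their direction and their side of the threshold under all 16 alternatives, and 9 higher genes were counted under each. The count of lower genes was 13 without BARD1 siRNA replicate 1 or 2 and 14 under every other alternative. ACAT2 (−0.33 to −0.22 with 1 library left out) and PMVK (−0.45 to −0.27) each lost their call without 1 library. IDI1, NSDHL and SCAP, none of them called, changed sign: −0.036, −0.040 and −0.028 with upper-quartile factors, −0.031, −0.035 and −0.023 scaled by library size alone, and −0.0071 to 0.058, −0.032 to 0.086 and −0.013 to 0.082 with 1 library left out. These scalings set the median of all genes at −0.07, against −0.01 with TMM factors. The median of the 31 genes moved to −0.114 under upper-quartile scaling, to −0.108 under library size alone, and to −0.112 to −0.018 with 1 library left out. The 6 lower genes of fatty acid activation and triglyceride synthesis ran from 2 to 6 with 1 library left out. For these changes the cause was not tested. With the replicate block 9 of the 31 genes were higher and 14 lower, and over all genes 3390 and 3122. Correlations of same-numbered libraries' deviations were −0.022 to −0.009, and those of different-numbered libraries −0.01 to 0.026. No pairing by number was seen, but 3 libraries per group cannot show a weak one. Without length scaling 6 genes moved by over 5 places in the order of levels. Depth limits CYP51A1, EBP and HSD17B7, with under 200 counts per library.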
